A study of Mus musculus with 52 samples.

Results

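The collagen genes were taken as every protein-coding gene of the deposited table whose symbol is Col, a number, a lower case a and a number, which gave 44 of 27525 genes. By the structure of their products, 11 are fibrillar, 8 belong to basement membranes (the Col4 genes, Col15a1 and Col18a1) and 25 are others. Expression was measured by bulk RNA-seq of whole subcutaneous KPC tumors, which grew from injected KxPxCx cells, a pancreatic tumor line of a genetically engineered mouse that carried Trp53 LSL.R172H/+ and Pdx1-Cre, among other alleles. The cells were placed in the flanks of syngeneic male C57BL/6NHsd mice of 8 to 10 weeks. Tumors were untreated, received ADU-S100 (a STING agonist) once into the tumor at 2 µg, received the agonistic anti-LTβR antibody 4H8 by intraperitoneal injection at 100 µg in 4 doses up to day 10, or received both agents, and were resected on day 14. Each of the 4 groups held 8 tumors. No vehicle or control antibody is named for the untreated tumors, and a subcutaneous tumor carries the stroma of the skin and not of the pancreas. Whole tumors were sequenced, so fewer cells of a type and less RNA per cell cannot be told apart. Values are normalized counts, for which the reads of each gene had been divided by a factor for the size of its library. The libraries held 12762453 to 15591986 reads assigned to genes.

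Collagens are triple helices of protein chains, each chain the product of its own gene. Fibrillar collagens assemble into the fibrils of connective tissue and are made mostly by fibroblasts. Collagen IV forms the sheet-like network of basement membranes under epithelia and around blood vessels. In pancreatic cancer, fibrillar collagens make up much of the dense stroma around the tumor cells.

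The promoters of Col1a2 and Col3a1 are shown because these genes carried, together with Col1a1, most of the added collagen counts of the combination, and those of Col4a1 and Col4a2 because this pair starts head to head and stayed near its untreated level. The windows, from RefSeq on GRCm38.p6, run from 250 bases before the start of the gene to 50 bases after it, by the RefSeq start, 5′ to 3′ on the strand of the gene. GENCODE places the start of Col1a2 farther upstream, at 4504814, so that window lies within the gene as GENCODE draws it. They lie at chr6:4505368-4505667 on the plus strand (Col1a2), chr1:45311288-45311587 on the plus strand (Col3a1), chr8:11312777-11313076 on the minus strand (Col4a1) and chr8:11312555-11312854 on the plus strand (Col4a2). Capitals mark CCAAT on either strand, and in the same way the letters GGGCGG and, as in a TATA box, TATAAA.
Col1a2: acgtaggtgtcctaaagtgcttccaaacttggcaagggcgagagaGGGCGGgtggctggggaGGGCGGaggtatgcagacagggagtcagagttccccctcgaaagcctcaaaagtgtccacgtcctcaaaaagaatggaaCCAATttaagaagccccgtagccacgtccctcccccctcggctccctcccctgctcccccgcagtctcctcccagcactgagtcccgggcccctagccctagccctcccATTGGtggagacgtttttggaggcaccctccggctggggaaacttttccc
Col3a1: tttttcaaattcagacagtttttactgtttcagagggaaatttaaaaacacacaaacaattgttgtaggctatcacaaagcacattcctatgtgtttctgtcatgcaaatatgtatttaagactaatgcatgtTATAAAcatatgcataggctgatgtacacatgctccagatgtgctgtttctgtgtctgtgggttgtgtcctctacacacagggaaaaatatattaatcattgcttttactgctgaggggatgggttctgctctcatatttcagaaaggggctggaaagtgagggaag
Col4a1: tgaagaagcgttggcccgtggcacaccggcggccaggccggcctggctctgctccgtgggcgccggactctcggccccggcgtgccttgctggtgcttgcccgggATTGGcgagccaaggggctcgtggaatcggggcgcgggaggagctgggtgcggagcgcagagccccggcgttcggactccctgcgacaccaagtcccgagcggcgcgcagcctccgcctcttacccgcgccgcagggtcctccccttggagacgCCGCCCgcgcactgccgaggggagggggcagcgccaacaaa
Col4a2: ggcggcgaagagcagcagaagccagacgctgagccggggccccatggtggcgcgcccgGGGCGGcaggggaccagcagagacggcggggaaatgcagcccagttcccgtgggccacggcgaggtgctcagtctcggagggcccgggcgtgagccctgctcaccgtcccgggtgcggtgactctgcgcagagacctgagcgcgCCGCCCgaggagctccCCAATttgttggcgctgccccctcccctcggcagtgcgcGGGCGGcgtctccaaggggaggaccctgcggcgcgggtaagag
The windows of Col4a1 and Col4a2 shared 78 bases, and the annotated genes overlapped by 22 bases at their 5′ ends. GGGCGG, the letters of a GC box, stood 2 times in the Col1a2 window, 1 time in that of Col4a1 and 3 times in that of Col4a2, and was not in the Col3a1 window, which held the TATAAA letters 117 bases before the start. The Col3a1 window was 37.7% G and C, against 61.0%, 74.0% and 73.7% for Col1a2, Col4a1 and Col4a2 and a median of 52.7% over all 32851 windows. Promoter windows were matched for 35 collagen genes, some with several, which gave 38 windows. GGGCGG was found in 6 of 8 fibrillar, 5 of 8 basement membrane and 12 of 22 other windows and in 35.7% of all windows of the same length. CCAAT was found in 3, 4 and 6 of these windows and in 37.4% of all, and TATAAA in 2, 0 and 3 and in 13.6% of all. The windows of Col1a1, Col2a1, Col4a3, Col5a2, Col9a3, Col12a1, Col14a1, Col22a1 and Col26a1 were not analysed here.

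The size of the collagen pool was set first against the rest of the library. The 44 genes together took 1.01% to 1.57% of the normalized counts of an untreated tumor and 1.56% to 4.72% in the combination. The 11 fibrillar genes summed to 102165 to 154629 normalized counts in untreated tumors (median 118404), to 77269.6 to 190978 with ADU-S100 (median 103305), to 84187 to 180613 with anti-LTβR (median 130147) and to 169981 to 606561 in the combination (median 355431). Every combination tumor lay above every untreated tumor, and the lowest of them, tumor 2, lay below the highest tumor of either single agent. The 8 basement membrane genes summed to 18443 to 24716 in untreated tumors and to 21657 to 25189 in the combination, so these groups overlapped. The 25 other genes summed to 47265 to 66775 in untreated tumors and to 57528 to 114371 in the combination. The sums are descriptions and were not tested.

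**Figure D1:**
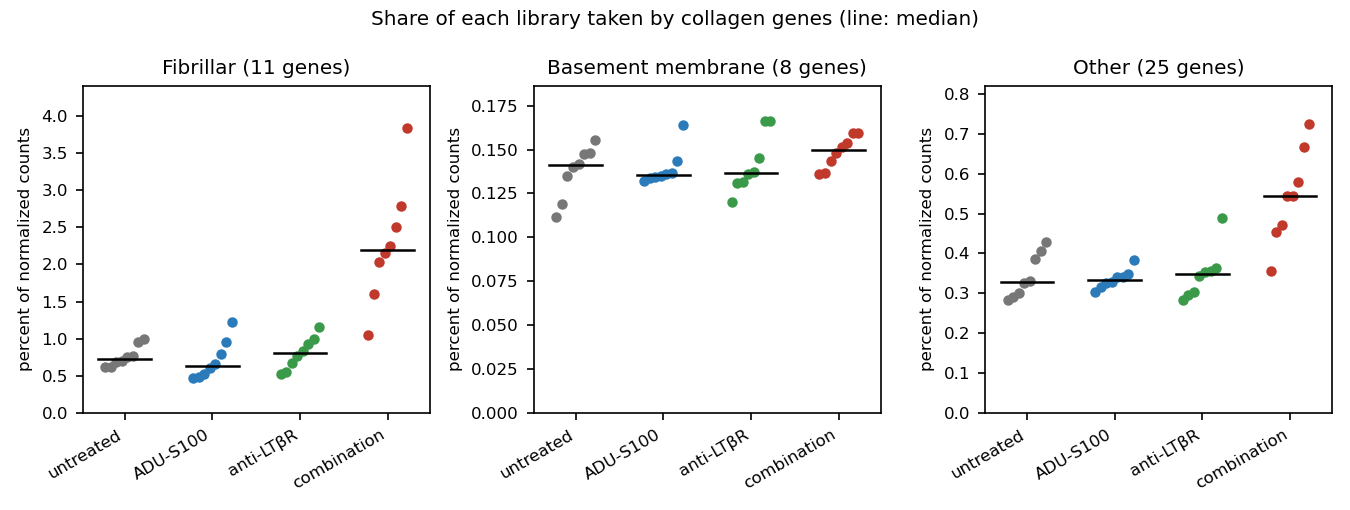
Share of each library's normalized counts, in percent, taken by fibrillar, basement membrane and other collagen genes in each tumor (points, 8 per group, black line at the median). Fibrillar genes took 0.612% to 0.99% in untreated tumors and 1.05% to 3.84% in the combination, while the basement membrane share had medians of 0.141% and 0.15%.

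Per kilobase of annotated exon, the mean level in untreated tumors was highest for Col1a1, at 5987 ± 1189.6 normalized counts per kilobase (SD, n = 8), followed by Col6a1 at 4101 ± 698 and Col3a1 at 4004 ± 772. Col6a1 and Col3a1 did not differ beyond their spread. Col1a2 (2056 ± 388), Col6a2 (1358 ± 206) and Col18a1 (1238 ± 186) came next, the last also within its spread of Col6a2, and then Col5a1 at 989.9 ± 130.4. Col4a1 stood at 836 ± 66.7 normalized counts per kilobase. In the combination, mean levels per kilobase were 18261 for Col1a1, 12479.5 for Col3a1 and 6849 for Col1a2, and the level of Col6a1 was 5862. Exon bases are the union over the annotated transcripts of a gene, so a gene with many long alternative exons has a low level on this scale.

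The comparison of the combination with untreated tumors shows what both agents together did to the collagen genes. Fibrillar collagens rose nearly as a class: 10 of 11 were higher at an FDR of 0.05 and the one that did not pass was Col2a1, the cartilage collagen (log2 fold change 0.11 ± 0.29, SE). In the 4 tumors per group not rich in keratinocyte RNA (defined further on) 6 of 11 were higher, with 25.5% of all genes called. The collagen IV genes of most basement membranes changed little, with Col4a2 0.20 ± 0.06 higher and Col4a1 0.09 ± 0.06 apart on the log2 scale. Among the others that were tested, the collagen VI genes Col6a6 and Col6a5 and the fibril-associated Col14a1 had the largest log2 fold changes. In the 4 tumors per group not rich in keratinocyte RNA the order was another, with Col22a1 at 2.18 and Col6a5 at 0.98. After the filter on low values, 38 of the 44 genes were tested, of which 24 were higher and 2 lower, whereas 43.2% of all 16909 tested genes were called, 19.6% as higher and 23.6% as lower (limma on log2(value + 1), Benjamini-Hochberg adjusted p below 0.05). With at least 2-fold change as well, 14 collagen genes were higher and none lower, and 5.16% of all tested genes were higher by this rule. The median log2 fold change was 1.27 over the 11 fibrillar genes, −0.09 over 7 basement membrane genes, 0.64 over 20 others and −0.02 over all tested genes. In 8 collagen genes, namely Col1a2, Col3a1, Col5a1, Col5a3, Col15a1, Col14a1, Col6a4 and Col9a3, every combination tumor lay above every untreated tumor, which 4.64% of all tested genes did. The 6 genes not tested (Col4a6, Col10a1, Col19a1, Col26a1, Col9a1 and Col9a2) had at most 30.0 normalized counts in any of these tumors, and Col6a4 passed the filter only through the combination tumors, so its place among the genes tested was set by the group in which it is high. Without it 23 genes were higher, 13 of them at least 2-fold, and 7 did not overlap.

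**Figure D2:**
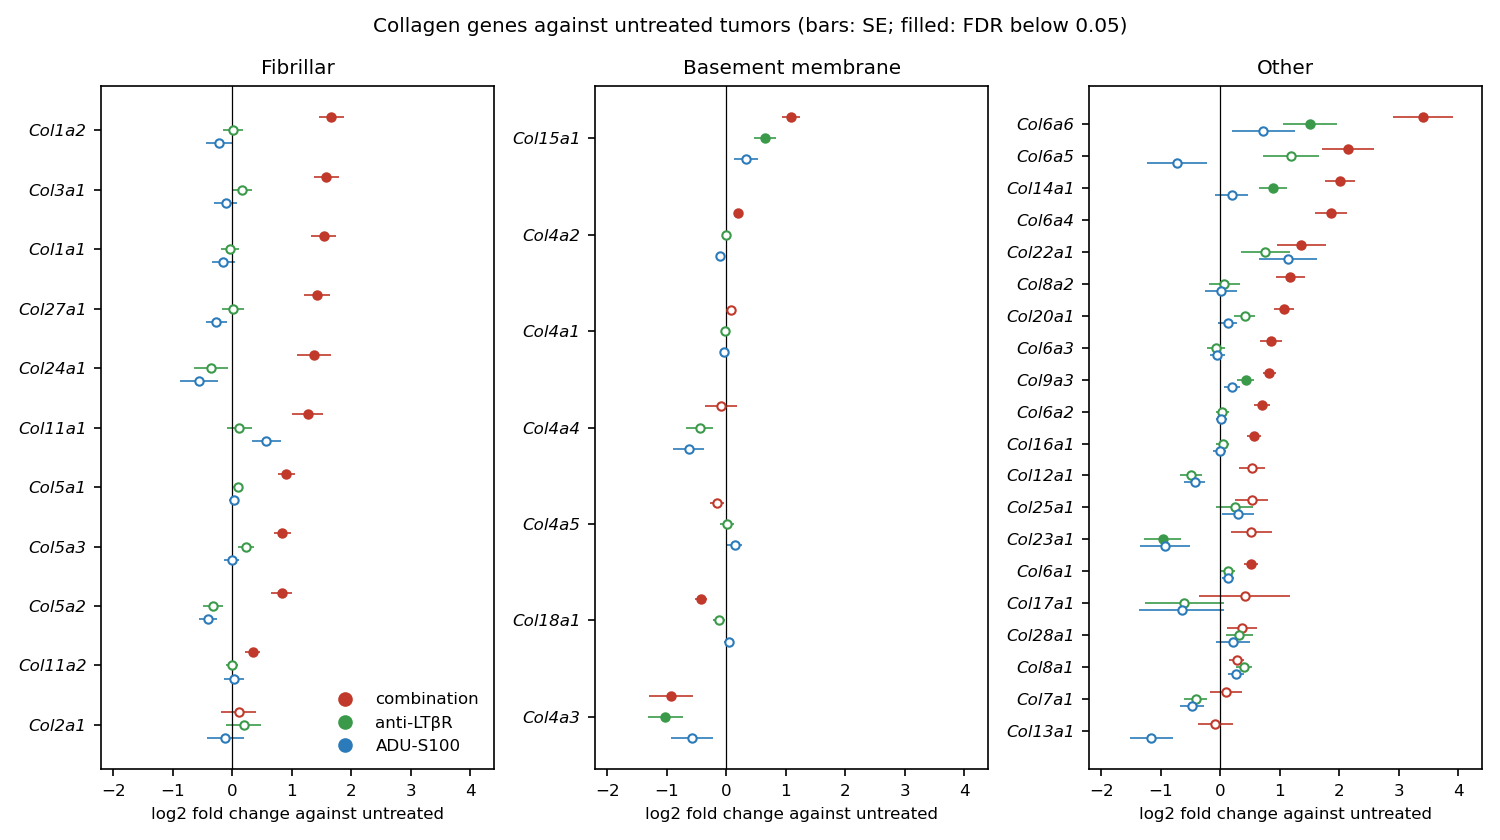
Log2 fold change against untreated tumors (x axis) of each tested collagen gene (y axis) by class, with the combination in red, anti-LTβR in green and ADU-S100 in blue, bars for the SE and filled points for an adjusted p below 0.05. Fibrillar genes of the combination lie to the right of 0, with Col1a2 at 1.66, while its points for Col4a1, Col4a2, Col4a4 and Col4a5 lie between −0.15 and 0.20.

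Col1a1 and Col1a2 encode the chains of collagen I, the main collagen of skin, tendon and scar. Col1a1 (chromosome 11, 94936224 to 94953042 on GRCm38) was at 32537 to 54578 normalized counts in untreated tumors (median 36846) and at 52931 to 196432 in the combination (median 116749). All combination tumors but tumor 2 lay above the untreated range, and tumor 2 was also the lowest of its group for Col1a2, Col3a1, Col24a1 and Col6a6 and for the fibroblast marker sum given further on. The log2 fold change of Col1a1 was 1.54 ± 0.21 (SE, 2.91-fold, adjusted p = 5.4e-05, limma). Col1a2 (chromosome 6) ranged from 20942 to 33313 (median 23371) and in the combination from 37729.8 to 145015 (median 84956), without overlap, a log2 fold change of 1.66 ± 0.21 (adjusted p = 2.95e-05, limma).

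Col3a1, whose product forms fibrils with collagen I in extensible tissues, was at 28908 to 49012 normalized counts in untreated tumors (median 40517) and at 58060.1 to 212971 in the combination (median 120908). The groups did not overlap, and the log2 fold change was 1.58 ± 0.21 (adjusted p = 4.01e-05, limma). Col5a1, Col5a2 and Col5a3, the chains of collagen V, which regulates the thickness of collagen I fibrils, rose less, by log2 fold changes of 0.91 ± 0.14, 0.83 ± 0.17 and 0.84 ± 0.14. Col5a1 was at 6925 to 10002 normalized counts in untreated tumors (median 8443) and at 10255 to 24624 in the combination (median 15400.3), and Col5a3 at 2284 to 3693 (median 2981) against 3745 to 7946 (median 5420.0), both without overlap. Col5a2, the neighbor of Col3a1 on chromosome 1 with 24614 bases between them, was at 5466 to 8229.8 normalized counts (median 6306) and at 6166 to 18010.4 in the combination (median 11720.1), where tumors of the groups overlapped at the low end only. Without the tumors rich in keratinocyte RNA, which leaves 4 tumors in each group, the log2 fold change of Col5a2 was 0.45 and did not pass (adjusted p = 0.127, limma).

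The minor fibrillar genes were low but moved in the same direction. Col24a1 was at 27.5 to 105 normalized counts in untreated tumors (median 54.7) and at 61.5 to 229 in the combination (median 145). Col27a1 was at 134 to 284 (median 173) against 258 to 1029 (median 477). The groups overlapped at 2 and 1 combination tumors, with log2 fold changes of 1.37 ± 0.29 and 1.43 ± 0.22 (adjusted p = 0.00124 and 0.000126, limma). In the 4 tumors per group not rich in keratinocyte RNA Col24a1 stood at 1.02 ± 0.38 (adjusted p = 0.0783, limma). Col11a1, a chain of collagen XI that nucleates fibrils in cartilage and is made by fibroblasts of many carcinomas, was at 19.1 to 47.7 normalized counts (median 31.8) against 38.0 to 155 (median 69.0), a log2 fold change of 1.27 ± 0.26 (adjusted p = 0.00105, limma), and at 1.09 ± 0.41 in those 4 tumors per group (adjusted p = 0.0783, limma). Col11a2 rose least of the called fibrillar genes, by 0.34 ± 0.13 on the log2 scale (adjusted p = 0.0423, limma), and this call was lost when skin or muscle RNA was taken into account (0.33 to 0.54, adjusted p = 0.0507 to 0.177, limma).

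**Figure D3:**
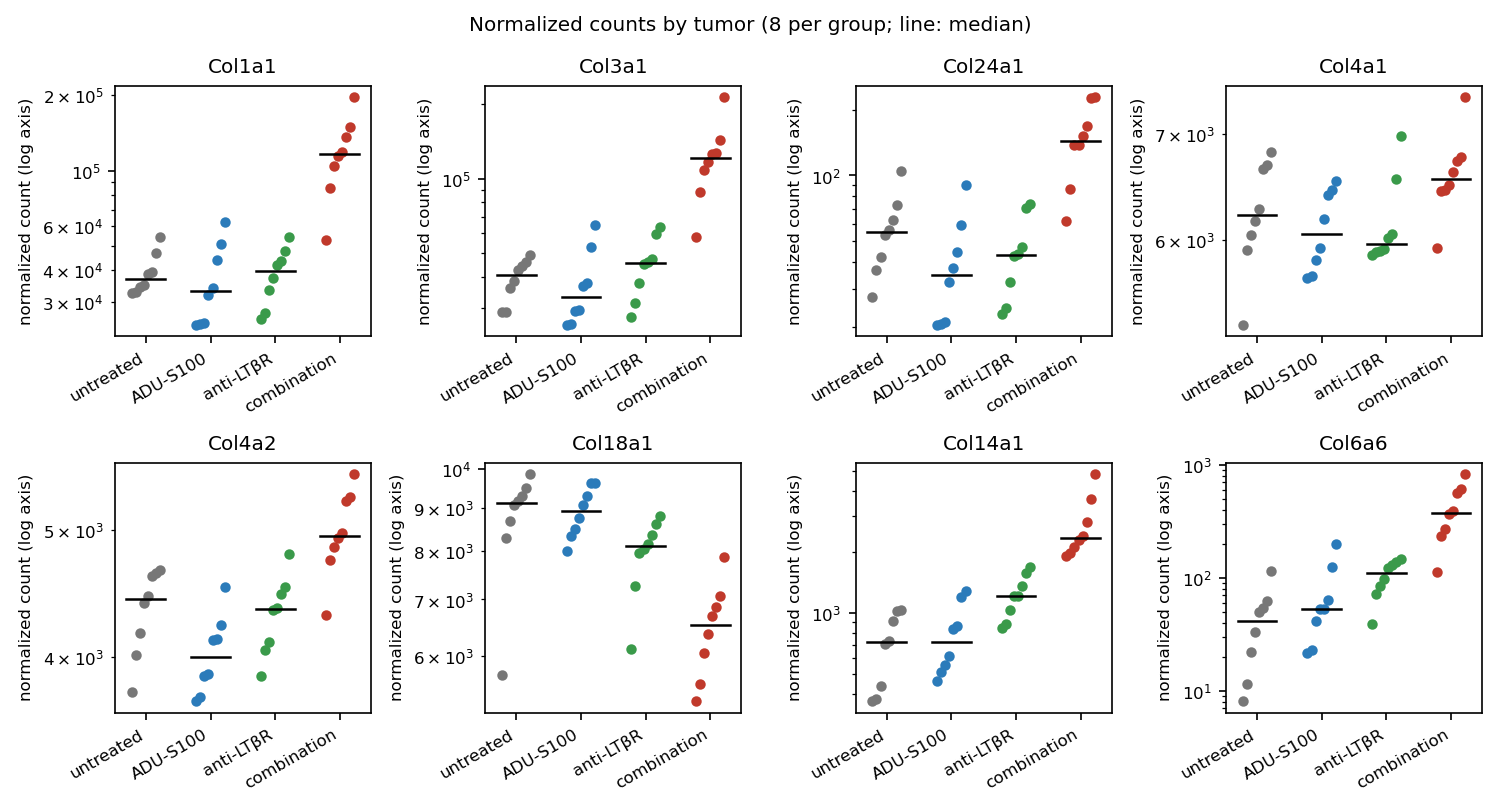
Normalized counts (log axis) of 8 collagen genes in every tumor by group, with a black line at the median. The combination lies above every other tumor for Col14a1 and, except at its low end, for Col1a1 and Col3a1, where its lowest tumor (52931 and 58060.1) is below the highest of each single agent. It overlaps the other groups for Col4a1 and lies lower for Col18a1, for which untreated tumor 3 is the lowest untreated point at 5697.

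Of the 8 basement membrane genes, 2 rose, 2 fell and 3 did not pass the test, and Col4a6 was not tested. Of the 7 tested genes 57.1% were called, where 43.2% of all genes were, and this difference in so few genes was not tested. Col4a1, at 5308 to 6819 normalized counts in untreated tumors (median 6227), was at 5938 to 7387 in the combination (median 6565), and the groups overlapped (log2 fold change 0.09 ± 0.06, adjusted p = 0.226, limma). Its partner Col4a2 was at 3765 to 4660.4 (median 4429) against 4306 to 5518 (median 4953). Only 1 combination tumor lay within the untreated range of Col4a2 (adjusted p = 0.00997, limma), though the change was 1.15-fold. Its log2 fold change of 0.20 was 0.18 without the tumors rich in keratinocyte RNA and 0.25 without those rich in muscle RNA, neither of which passed (adjusted p = 0.101 and 0.0761, limma). Col15a1, which lies at basement membranes of muscle and vessels, was at 1513 to 3449 (median 2631) and rose without overlap to 4059 to 6349 (median 5229), a log2 fold change of 1.09 ± 0.15 (adjusted p = 4.96e-05, limma).

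Col18a1, the source of the fragment endostatin, was the most abundant basement membrane collagen per kilobase in untreated tumors. It was at 5697 to 9869.7 normalized counts there (median 9118) and at 5298 to 7863 in the combination (median 6535). All untreated tumors but tumor 3 lay above every combination tumor, and the log2 fold change was −0.42 ± 0.11 (adjusted p = 0.00432, limma). Without the tumors rich in keratinocyte RNA it was −0.46 and did not pass (adjusted p = 0.111, limma). Col4a3, a chain of the kidney and lung basement membrane, was at 8.77 to 30.1 normalized counts against 1.07 to 12.4, so its fall of 0.93 ± 0.37 on the log2 scale (adjusted p = 0.0492, limma) rests on few reads per tumor, and its call was lost in 6 of 11 alternatives. Its head-to-head neighbor Col4a4, with 71 bases between the genes, did not pass the test (log2 fold change −0.09 ± 0.27).

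Several of the other collagens associate with fibrils. Col14a1, whose product binds to collagen I fibrils, was at 369 to 1042 normalized counts in untreated tumors (median 719) and at 1908 to 4846 in the combination (median 2337). The groups were well apart, with a log2 fold change of 2.01 ± 0.25 (4.03-fold, adjusted p = 2.95e-05, limma). Col9a3, a chain of the cartilage collagen IX, was at 27.4 to 40.0 normalized counts (median 31.4) against 44.9 to 67.1 (median 59.0), also without overlap, and rose by 0.83 ± 0.11 on the log2 scale. Col20a1 was at 17.0 to 32.6 (median 25.7) against 31.3 to 68.4 (median 51.9), with a log2 fold change of 1.07 ± 0.17. Col16a1 rose by 0.58 ± 0.12, with medians of 2298 and 3233 normalized counts, and stood at 0.48 without the tumors rich in keratinocyte RNA (adjusted p = 0.0502, limma). Col22a1, known from the junction of muscle and tendon, was at 3.01 to 27.7 normalized counts (median 9.17) against 9.62 to 59.7 (median 31.4). Its rise of 1.36 ± 0.41 on the log2 scale (adjusted p = 0.0135, limma) did not pass without the tumors rich in muscle RNA (1.03, adjusted p = 0.245, limma). It was 0.93 with both marker sums as covariates (adjusted p = 0.0878, limma) and 2.18 without the tumors rich in keratinocyte RNA (adjusted p = 0.0115, limma). Col12a1 was at 4147 to 8942 (median 5059.8) against 4589.9 to 12560.3 (median 8126) and did not pass (log2 fold change 0.54 ± 0.22, adjusted p = 0.0600, limma), although 8 of 11 alternatives called it. Its log2 fold change was 0.16 when tumors rich in keratinocyte RNA were left out (adjusted p = 0.667, limma).

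Of the 6 genes of collagen VI, which forms beaded filaments around cells, 5 were called higher, where 19.6% of all genes were. This is beside Col6a4, which had passed the filter only through the combination. Of these calls 3 (Col6a1, Col6a2 and Col6a5) ended without the tumors rich in keratinocyte RNA, where the share of all genes called went from 43.2% to 25.5%. The main chains Col6a1, Col6a2 and Col6a3 rose by log2 fold changes of 0.52 ± 0.11, 0.70 ± 0.13 and 0.85 ± 0.18, which without those tumors were 0.40, 0.48 and 0.69 (adjusted p = 0.112, 0.0789 and 0.0339, limma). The low genes Col6a4, Col6a5 and Col6a6, neighbors on chromosome 9, had log2 fold changes of 1.87 ± 0.27, 2.15 ± 0.44 and 3.41 ± 0.50, which without those tumors were 1.72, 0.98 and 2.47 (adjusted p = 0.00846, 0.185 and 0.0326, limma). They were 2.13, 3.15 and 4.73 without the tumors rich in muscle RNA (adjusted p = 0.00834, 0.00354 and 0.0029, limma). Whether the changes of the low genes differ from those of the main chains was not tested. Col6a6 was at 8.03 to 116 normalized counts in untreated tumors (median 41.6) and at 112 to 833 in the combination (median 377), and a single combination tumor fell within the untreated range. Col6a5 was at 37.2 to 472 (median 73.7) against 222 to 759.6 (median 364), where the overlap was due to untreated tumor 3 alone, the other untreated tumors being at or below 142, and Col6a4 at 4.92 to 12 (median 7.45) against 15.7 to 77.9 (median 28.4). Col8a2, a short-chain collagen of the corneal and vascular matrix, was at 46.8 to 114 (median 55.5) against 88.8 to 303 (median 142), with a log2 fold change of 1.18 ± 0.24, or 0.99 without the tumors rich in keratinocyte RNA (adjusted p = 0.0888, limma). Of the transmembrane and anchoring collagens, Col13a1, Col17a1, Col23a1, Col25a1 and Col7a1, none passed the test, and the log2 fold changes ran from −0.08 to 0.53. Col17a1, a hemidesmosome protein of basal keratinocytes, ranged from 45.8 to 1029.8 normalized counts in untreated tumors alone.

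Markers of other cells moved with these values. Of 10 fibroblast markers 8 were higher in the combination, where 19.6% of all genes were higher and 23.6% lower, and their sum was 31726 to 41292 normalized counts in untreated tumors and 42835 to 75013 in the combination. Dpt, a fibroblast matrix protein, rose from 1115 ± 431 to 4247 ± 1703 normalized counts (SD, n = 8 each), and Dcn, a small proteoglycan of fibrils, from 4258 ± 1477 to 12181 ± 4101. Against the same shares, all 10 blood endothelial markers and 7 of 8 tested mural markers, which label the cells around vessels, were higher, and 5 of 8 epithelial tumor markers were lower. The endothelial sum was 2088 to 2932 in untreated tumors and 3881 to 5325 in the combination, and the epithelial sum was 18400.3 to 34408 against 7683 to 16731. None of these markers was at 0 in every library. The part of these cells in the collagen values was not tested.

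Skin and muscle RNA varied widely between tumors of every group. The sum of 8 keratinocyte markers ran from 1181 to 60145 normalized counts over the 32 tumors and was above 15000 in 4 untreated, 1 ADU-S100, 1 anti-LTβR and 4 combination tumors. Without these tumors, left out after the data were seen, 15 of 37 tested collagen genes were higher and 0 lower in the combination, 6 of them fibrillar, with 25.5% of all genes called, and Col1a1 was 1.23 higher on the log2 scale (adjusted p = 0.0151, limma). The 4 combination tumors at or below the limit had fibrillar sums of 169981 to 359143 and the 4 untreated tumors 102165 to 151643, so they did not overlap. The sum of 8 skeletal muscle markers ran from 6016 to 384295 and had medians of 9279 in untreated tumors, 85849 after ADU-S100, 112474 after anti-LTβR and 105368 in the combination. Without the tumors above 50000, which left 5 untreated and 3 combination tumors, 23 of 39 genes were higher and 1 lower, with 20.7% of all genes called. With both sums as covariates 23 of 38 were higher and 1 lower, with 37.1% of all genes called. No keratinocyte or muscle marker passed the test between combination and untreated tumors. The median keratinocyte sum was 13288 in untreated tumors, 4832 after ADU-S100, 5210.0 after anti-LTβR and 21323 in the combination.

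**Figure D4:**
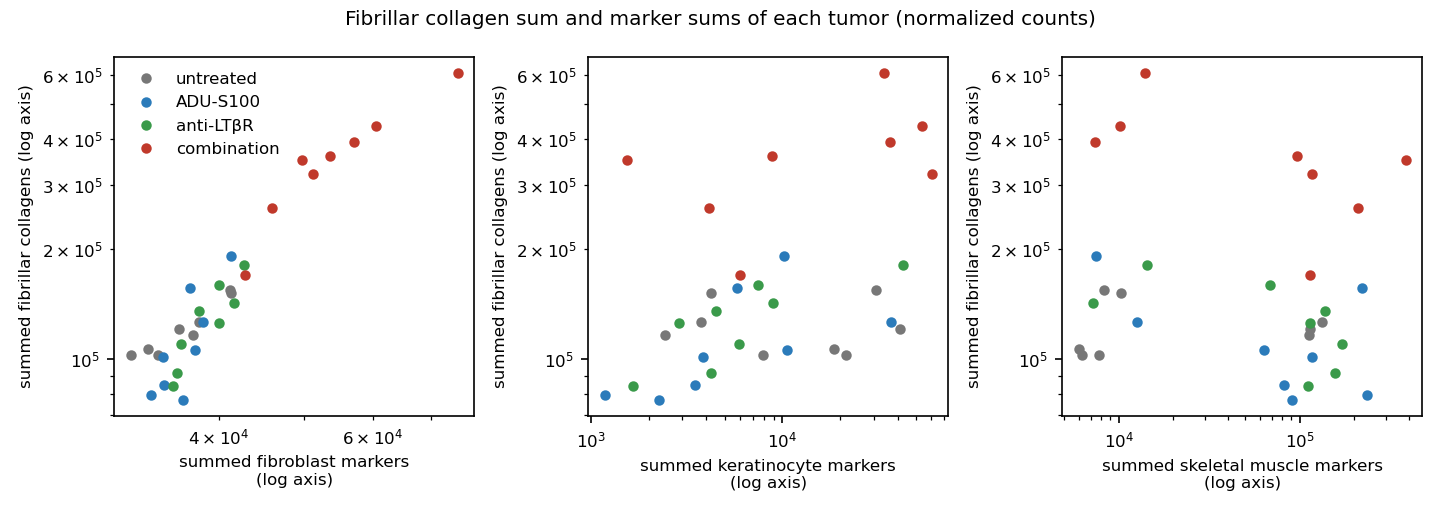
Summed normalized counts of the 11 fibrillar genes (y axis) against the sums of fibroblast, keratinocyte and skeletal muscle markers (x axes) in each of the 32 tumors, on log axes, colored by group. Combination tumors hold the highest fibrillar and fibroblast sums, and their keratinocyte sums spread from 1551 to 60145.

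The single agents were compared with the same untreated tumors, so these comparisons share their control samples. With anti-LTβR no fibrillar gene passed the test in limma, with 0 of 11 at an unadjusted p below 0.05, and their log2 fold changes ran from −0.35 to 0.23. Of 36 tested collagen genes 4 were higher (Col14a1, Col15a1, Col6a6 and Col9a3) and 2 lower (Col4a3 and Col23a1), where 15.3% of all genes were called, 7.21% as higher and 8.1% as lower. In the same comparison 5 of 10 blood endothelial, 5 of 8 leukocyte, 2 of 10 fibroblast and 1 of 8 tested mural markers were higher and 5 of 8 epithelial tumor markers lower, and their part in these values was not tested. No tested collagen gene had all 8 tumors above the untreated range, which 0.809% of all genes had. Col13a1, a transmembrane collagen too low to be tested here, was at 2.23 to 7.8 normalized counts with anti-LTβR (median 6.15), below every untreated tumor (7.88 to 27.1, median 12.5), and without a test this stands as a description of few reads. Of all 16691 tested genes 161 had all 8 tumors below the untreated range. Col14a1 was at 844 to 1691 normalized counts (median 1219), between the medians of untreated and combination tumors, with a log2 fold change of 0.88 ± 0.23 (adjusted p = 0.0214, limma). Col15a1 was at 2672 to 6015 (median 3589), 0.65 ± 0.18 higher on the log2 scale (adjusted p = 0.0271, limma), and Col6a6 at 39.1 to 147 (median 109.9), 1.51 ± 0.45 higher (adjusted p = 0.0346, limma). Col23a1, a transmembrane collagen, was at 63.4 to 228 (median 142) against 92.6 to 559 (median 256) in untreated tumors, and its log2 fold change was −0.96 ± 0.31 (adjusted p = 0.0455, limma). Col9a3 was at 26.7 to 52.8 (median 46.9), and Col4a3 at 3.92 to 13.8 (median 6.32), 1.02 ± 0.29 below the untreated tumors on the log2 scale. Without the tumors rich in keratinocyte RNA 1 collagen gene passed, a basement membrane gene that was lower, where 11.6% of all genes did. With both sums as covariates 1 passed, a basement membrane gene that was higher, where 8.5% did. Outside the basement membrane class 0 collagen genes passed in either fit, so the calls of Col14a1, Col6a6, Col9a3 and Col23a1 ended in both. Without the tumors rich in muscle RNA 0 of 40 collagen genes passed in limma, where 1 of all 17627 genes did, so the count says nothing about collagen genes.

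With ADU-S100 none of 37 tested collagen genes passed the test in limma, edgeR or DESeq2, and limma called 0 of all 16613 genes (0%). At an unadjusted p below 0.05 there were 8 collagen genes, and 2408 genes in all (14.5%). Col1a1 was at 24246 to 62152 normalized counts (median 33045) and Col3a1 at 25586 to 65061 (median 33165), so both spanned the untreated range. Col11a1 was at 28.1 to 118 (median 42.4), and its highest value stood alone. Col13a1 had the lowest log2 fold change, −1.16 ± 0.36, and Col22a1 the highest, 1.15 ± 0.48, both with medians of at most 25 normalized counts. Col18a1 (7997 to 9629.9, median 8908) and Col4a1 (5681 to 6538, median 6059.5) lay inside or close to the untreated range.

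Against each single agent the combination gave a like picture, though the 3 comparisons share the combination tumors. Compared with ADU-S100, 24 of 37 tested collagen genes were higher and 2 lower, where 46.2% of all genes were called, 20.2% as higher and 26% as lower, with log2 fold changes of 1.69 ± 0.26 for Col1a1 and −0.47 ± 0.07 for Col18a1. The fibrillar genes gave 8 of 11 higher, the basement membrane genes 3 higher and 2 lower of 6 tested and the others 13 of 20. Here too Col6a4 passed the filter only through the combination, and without it 23 of 36 genes were higher, with 12 of 19 of the others. Compared with anti-LTβR, 24 of 37 were higher and 1 lower, where 26.6% of all genes were called, 11.3% as higher and 15.3% as lower, and the fibrillar genes gave 10 of 11. Col6a4 was at 15.7 normalized counts or more in every combination tumor and from 6.68 with anti-LTβR, so the combination was enough to carry it past the filter. Without it 23 of 36 genes were higher, with 11 of 19 of the others. Against both agents 8 of 10 fibroblast and 10 of 10 blood endothelial markers were higher, and of 8 epithelial tumor markers 5 were lower against ADU-S100 and 4 against anti-LTβR. The part of these cells was not tested. Relative to anti-LTβR, Col1a1 stood 1.58 ± 0.23 higher on the log2 scale, Col14a1 1.13 ± 0.19 and Col15a1 0.44 ± 0.14. Col12a1 and Col23a1, which had not passed against untreated tumors, were higher than with either agent, by 0.96 ± 0.22 and 1.46 ± 0.43 over ADU-S100 and by 1.03 ± 0.23 and 1.49 ± 0.32 over anti-LTβR. Without the tumors rich in muscle RNA, which left 2 tumors with each single agent, 0 of 39 and 1 of 40 collagen genes passed in limma, where 1 of 17514 and 14 of 17615 genes did, and the log2 fold change of Col15a1 over anti-LTβR turned to −0.042 (adjusted p = 0.909).

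The interaction of the agents asks whether the combination differs from the sum of the single effects on the log2 scale, and used all 32 tumors. It was positive in 17 of 40 tested collagen genes and negative in none, where 18.4% of all genes were called, 7.33% as positive and 11% as negative. The 17 include Col6a4, at 0.999 to 8.82 normalized counts with ADU-S100 and 15.7 to 77.9 in the combination. The group in which Col6a4 is high was enough to carry it past the filter, so its place in this count is no result. Without the tumors rich in muscle RNA, which left 2 tumors with each single agent, no gene at all passed, collagen or other (0 of 18302, limma). The interaction was positive in 13 of 39 collagen genes without the tumors rich in keratinocyte RNA (14% of all genes called). With both sums as covariates it was positive in 15 of 40 and negative in 1 (18.4%). In the test of all 32 tumors without covariates, 8 of the 11 fibrillar genes passed, led by Col5a2, with an interaction of 1.56 ± 0.27 (adjusted p = 0.000521, limma), Col1a2 (1.87 ± 0.33) and Col1a1 (1.72 ± 0.31). Col24a1 had the largest value of the class, 2.28 ± 0.45. Col4a2 was the only basement membrane gene that passed (0.32 ± 0.07, adjusted p = 0.00441, limma). Col14a1 (0.94 ± 0.35, adjusted p = 0.0570, limma) and Col15a1 (0.12 ± 0.26) did not. Col12a1 showed an interaction of 1.45 ± 0.30, with medians of 5059.8 normalized counts in untreated tumors, 3979 after ADU-S100 alone, 3606 after anti-LTβR alone and 8126 after both agents. Col23a1 was likewise lowest with the single agents, with medians of 256, 132, 142 and 406 normalized counts in that order, and an interaction of 2.42 ± 0.55. The median keratinocyte sum was also lower after each single agent and highest after both, and 1 of 8 keratinocyte, 8 of 10 fibroblast and 8 of 10 endothelial markers passed with a positive interaction. When tumors rich in keratinocyte RNA were left out the interactions of Col12a1 and Col23a1 were 1.19 and 1.86 (adjusted p = 0.0169 and 0.0435, limma), while the log2 fold change of Col23a1 in the combination against untreated tumors was 0.16. The part of these cells in the interactions was not tested.

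Chains that share a trimer or a fibril were compared as ratios within each tumor, which do not depend on the scaling of the library. The Col1a2 to Col1a1 ratio was 0.582 to 0.715 in untreated tumors (median 0.643) and 0.677 to 0.738 in the combination (median 0.718), higher by 0.12 on the log2 scale (exact permutation test, two-sided, adjusted p over 9 tests = 0.0322). The Col4a2 to Col4a1 ratio was 0.651 to 0.735 (median 0.703) against 0.721 to 0.794 (median 0.755), higher by 0.11 on the log2 scale (exact permutation test, adjusted p = 0.0112). Both shifts were small beside the changes of collagen I, and the groups overlapped in both. With tumors paired by replicate number neither passed (exact permutation test, adjusted p = 0.141 and 0.0703), and 0.0703 is the lowest value that a single ratio can reach there. The Col3a1 to Col1a1 ratio had medians of 1.01 and 1.03 and did not pass (exact permutation test, adjusted p = 0.736), nor did any ratio with a single agent, of which Col4a2 to Col4a1 with ADU-S100 came nearest (−0.08 on the log2 scale, exact permutation test, adjusted p = 0.0657). The ratio of Col1a1 to Col4a1, given as a description, was 4.86 to 8.69 in untreated tumors and 8.21 to 29.0 in the combination.

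**Figure D5:**
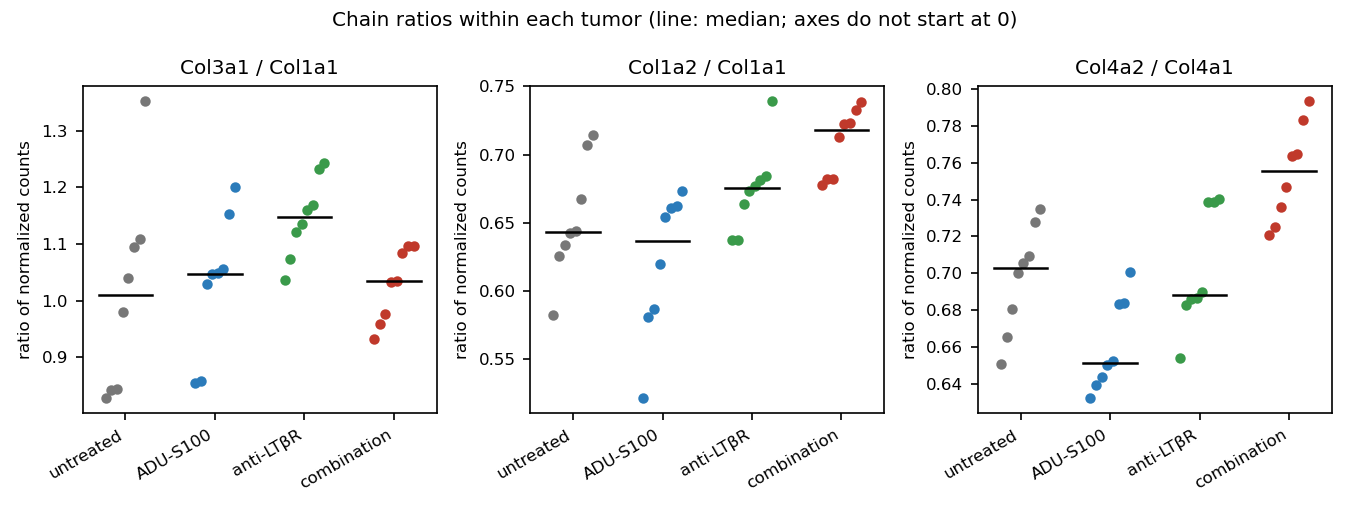
Ratios of normalized counts of collagen chains in each tumor by group, with a black line at the median and axes that do not start at 0. Col4a2 to Col4a1 has medians of 0.703 in untreated and 0.755 in combination tumors, and Col3a1 to Col1a1 has 1.01 and 1.03.

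Genes that make, modify and bind collagen were counted in the comparison of the combination with untreated tumors. Over all tested genes of this comparison 19.6% were higher and 23.6% lower. Of 12 genes of the hydroxylases and their partners, which modify proline and lysine in the chains, 5 were higher and 3 lower. P3h3, a prolyl hydroxylase family member, rose from 346 ± 41.4 to 769 ± 198 normalized counts (SD, n = 8 each) and P3h1 from 672 ± 33.4 to 982 ± 179. Of 9 tested genes of collagen chaperones, glycosylation and export, 8 were higher. Sparc, a secreted collagen-binding protein, rose from 20058 ± 2166 to 49413 ± 15182, and Fkbp10, an isomerase of the endoplasmic reticulum, from 749 ± 45.8 to 1434 ± 368.

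Of 7 tested genes of propeptide removal, against the same 19.6% and 23.6%, 4 were higher and 1 lower, with Adamts14, which cleaves the amino-terminal propeptide, at 278 ± 59.7 and 434 ± 69.0 normalized counts. Pcolce, an enhancer of the carboxy-terminal cleavage, was at 3164 ± 399 and 4484 ± 748. The 5 lysyl oxidases, which crosslink collagen, split: 4 were higher, among them Loxl2 (1399 ± 255 against 3209.5 ± 1121), and Loxl4 fell from 388 ± 34.9 to 251 ± 26.4. Of 9 tested collagen receptors 5 were higher and 2 lower. Mrc2, which takes up collagen into cells, rose from 1025 ± 188 to 2504 ± 658 normalized counts and Ddr2, a receptor kinase for fibrillar collagen, from 536 ± 102 to 1165 ± 252.

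Of 14 laminin, nidogen and proteoglycan genes of the basement membrane, again against 19.6% and 23.6% of all genes, 6 were higher and 4 lower. Nid2, a nidogen that links laminin to collagen IV, rose from 158 ± 27.9 to 398 ± 113 normalized counts, and Lama4, a laminin chain of vessels, from 921 ± 113 to 1633 ± 414. With anti-LTβR 0 hydroxylase, chaperone or basement membrane partner genes passed, and 1 propeptide gene, 1 lysyl oxidase and 1 receptor were lower and 1 receptor higher, where 8.1% of all genes were lower and 7.21% higher. With ADU-S100 no gene of these lists passed in limma.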

How the data were processed

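Tumor RNA was sequenced as poly(A) bulk RNA-seq in 32 libraries of 4 groups. The authors deposited a normalized signal, with the reads of each gene scaled by a size factor. The methods name Cutadapt, HISAT2 and StringTie for mouse tumors, and the submitters' processing notes also name STAR, Partek, DESeq2, edgeR and mm 39. Which of these made each table, and whether counting used strand, is not given in the sources used here. A larger deposited table (52 libraries, 27894 genes) gave whole reads (100% of values below 1000 units within 0.05 reads of a whole number), 12762453 to 15591986 per library, for the count tests. For some libraries 1 read was worth nearly 1 unit, where whole values cannot be distinguished from rounded ones. It holds 43 of the 44 collagen genes (not Col18a1). Deposited columns of gene set enrichment by the authors (scores, p-values and FDR) were not used. Per-sample columns left unused number 0. Gene positions and exon lengths are from GENCODE on GRCm38, matched by gene ID, and the deposited coordinates, of which 572 of 26500 gene starts were the same there, were not used.

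Comparisons used limma 3.58.1 (R 4.3.3, trend) on log2(value + 1), each on its own 16 libraries, after filterByExpr of edgeR 4.0.16 with a minimum of 10 on the normalized values, with Benjamini-Hochberg adjustment over all tested genes. A fold change is on this log2(value + 1) scale, which understates the change of low genes. Thresholds were an FDR of 0.05 and, where said, a fold change of 2. Chain ratios were tested by two-sided exact permutation over 12870 arrangements of 16 tumors. Alternatives were edgeR on recovered reads with TMM, RLE or library totals, DESeq2 1.42.0, a pseudocount of 0.5, no filter, a joint model of the 4 groups, a block for the replicate number, group medians for ratios and, chosen after seeing the data, leaving out tumors above 15000 keratinocyte or 50000 muscle marker counts and both sums as covariates. The tests were tried on simulated data first. Members and lists were chosen with earlier results of these data known. Full values were given for Col1a1, Col1a2, Col3a1, Col4a1, Col4a2 and Col18a1, for members that changed at least 2-fold in any comparison and for the 3 of each class with the smallest adjusted p in the combination, and 2 genes were named per further list. Each tumor was sequenced on its own. The labels place all 32 in a single set, and the study's legends describe the bulk data once as 1 experiment and once as 2 experiments combined, so no experiment term was fitted. Marker lists of adipocytes (0 of 6 tested genes called), cartilage and bone (0 of 4), Schwann cells (4 of 6 higher) and leukocytes (7 of 8 higher) were also counted in the combination against untreated tumors. One allele of the tumor cells is not reported here.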

Additional observations from a re-analysis of the deposited data

Results flagged for a closer look

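In 5 of 88 groups of values 1 tumor stood far from the rest, where 1 in 20 groups would by chance. Untreated tumor 3 was the lowest for Col18a1, at 5697 normalized counts against 8279 to 9869.7 in the others, and the highest for Col6a5, at 472 against 37.2 to 142. ADU-S100 tumor 2 had 118 normalized counts of Col11a1 against 28.1 to 52.7. Anti-LTβR tumor 3 had 359.6 of Col27a1 against 133 to 221, and combination tumor 5, which also had the highest fibrillar sum, 77.9 of Col6a4 against 15.7 to 37.1.

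The effect of both agents differed from the sum of the single effects, by the interaction test of limma, in 17 of 40 collagen genes, where 18.4% of all genes were called. It did in 0 of 40 (0 of 18302 genes) without the tumors rich in muscle RNA, which left 2 tumors with each single agent. The interaction was positive in 13 of 39 without the tumors rich in keratinocyte RNA (14% of all genes called). With both sums as covariates it was positive in 15 of 40 and negative in 1 (18.4%). With all tumors and no covariates the fibrillar interactions were, on the log2 scale, 1.72 for Col1a1, 1.87 for Col1a2, 1.53 for Col3a1, 0.80 for Col5a1, 1.56 for Col5a2, 0.62 for Col5a3, 2.28 for Col24a1 and 1.67 for Col27a1. The basement membrane gene Col4a2 had 0.32. Among the others they were 1.45 for Col12a1, 2.38 for Col13a1, 0.54 for Col16a1, 2.42 for Col23a1, 0.64 for Col6a2, 0.98 for Col6a3, 1.71 for Col6a4 and 0.98 for Col7a1. For Col6a4 the combination, the group in which it is high, was enough to carry it past the filter. Col13a1 rests on few reads, and its median was 12.5 normalized counts in untreated tumors, 5.96 and 6.15 after ADU-S100 or anti-LTβR alone and 15.4 after both.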

How the results depend on the processing

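For the combination against untreated tumors 24 to 28 collagen genes were called under every alternative but 1, where 20.7% to 47.8% of all genes were called, and 15 without tumors above 15000 keratinocyte marker counts (25.5%). With anti-LTβR 6 were called, and 2 under the replicate block (9.95% of all genes). The count was 1, a lower gene, without the tumors high in keratinocyte markers (11.6%), and 0 without those high in muscle markers (1 gene of 17627). With both sums as covariates it was 1, a higher gene (8.5%). Without tumors high in muscle markers, where 2 remain with each single agent, 0 of 39 were called against ADU-S100, 1 of 40 against anti-LTβR and 0 of 40 for the interaction (over all genes 1 of 17514, 14 of 17615 and 0 of 18302), and the log2 fold change of Col15a1 against anti-LTβR turned to −0.042 (adjusted p = 0.909, limma). The log2 ratio of Col4a2 to Col4a1 with anti-LTβR turned from 0.01 to −0.030 with group medians, a value without a test. Col4a3 and Col22a1 had few reads per tumor, and the cause of their lost calls was not tested.

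The replicate numbers of the labels belong to different mice, and the deviations of same-numbered tumors had correlations from −0.65 to 0.73. Over the pairs of groups the mean correlation ran from −0.11 to 0.20, with 2 to 4 of 8 tumor pairs above 0.1. Whether same-numbered tumors share a condition was not tested. With the replicate block 26 genes were called in the combination against untreated tumors (41% of all genes), 0 with ADU-S100 (0.012%), 25 against ADU-S100 (43.3%), 23 against anti-LTβR (26.9%) and 18 for the interaction (18.7%). The log2 ratios of Col1a2 to Col1a1 and Col4a2 to Col4a1 stayed at 0.12 and 0.11 with pairing (exact permutation test, p = 0.0312 and 0.00781, adjusted p = 0.141 and 0.0703). With 8 pairs p cannot fall below 0.00781, which a single ratio among 9 carries to an adjusted p of 0.0703. Col4a2 to Col4a1 stood at this lowest p, so missing the threshold says nothing about that ratio. Col1a2 to Col1a1 stood above it, so its call did not hold with pairing.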

Other observations

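Another 20 libraries of the larger table come from a second set of tumors and entered no comparison. In 5 of them all labels give the combination, and Col1a1 was at 7154, 67772 and 88919 normalized counts as lowest, median and highest, Col3a1 at 39413, 84577 and 172853 and Col4a1 at 2439.98, 5585 and 7007. For the other 15 the labels contradict each other, and Col1a1 ranged from 9417 to 69247 (median 17660.3), Col3a1 from 16909 to 169451 (median 33574) and Col4a1 from 3697 to 6162 (median 4287).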
